A study of Homo sapiens with 9 samples.

Results

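The divergent promoter transcripts described here are the 44 rows of a human gene count table whose symbol ends in -DT and whose counts, summed over all 9 libraries, reached at least 100. The table held 60591 symbols, of which 133 ended in -DT, and 20 of those 133 had no count in any library. The suffix marks a noncoding RNA that is transcribed away from the promoter of the protein-coding gene in its name, which is called its partner below. Summed counts alone chose the members, from 115 for RELA-DT, 116 for SEPTIN7-DT and 120 for RPP38-DT just inside the threshold to 2557 for GARS1-DT. Just outside it were ADCY6-DT with 98 counts and CCDC15-DT and DPP4-DT with 97 each.

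The RNA came from undifferentiated Caco-2 cells (uCaco-2), a line derived from a human colon adenocarcinoma, which were grown to subconfluence and then kept for 24 h in 1 of 3 media. The groups were control cells in fresh medium, cells with 300 μM cobalt(II) chloride (CoCl2) and cells with 5 μM of the oxyquinoline derivative 4896-3212 (OD), with 0.5% DMSO in all 3 groups and 3 biological replicates in each. Both compounds are used as chemical mimics of hypoxia that stabilize hypoxia-inducible factors (HIF), so a single cell line and a single time point stand behind every value. The comparisons asked how each divergent transcript responded to each compound and whether it did so together with its coding partner.

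Most active mammalian promoters fire in both directions. The coding strand is elongated into mRNA, whereas RNA polymerase that leaves upstream on the other strand meets early polyadenylation sites and few U1 binding sites, and it is usually stopped by the Integrator or Restrictor complexes or at these sites. The short RNAs are then handed to the nuclear exosome by adaptor complexes named NEXT and PAXT. The transcripts that carry a -DT symbol are those that are long, spliced or stable enough to be annotated as genes of their own, and a poly(A)-selected library samples only their polyadenylated form.

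All 44 members were annotated as lncRNA, all 44 partners as protein coding, and every member lay on the strand opposite to its partner in GENCODE release 44 on GRCh38. The distance between the closest transcript starts of the pair had a median of 89 bases, with 23 pairs within 100 bases, 38 within 300 bases and 43 within 1000 bases. The exception was CDKN2A-DT (chr9:21966929-21967751, plus strand), whose 3′ end adjoins the 3′ end of CDKN2A and whose start lay 3538 bases from the closest CDKN2A transcript start, so its symbol does not describe a shared promoter in this annotation. Exonic bases were shared with a gene on the opposite strand for 20 members (at most 14.7% of a member's exonic bases) and with a gene on the same strand for 4 members (at most 2.07%). The strand setting of the counting is not given in the sources used here, so reads in those shared bases cannot be assigned to one gene with certainty. The partner CHKB is uncertain for the same reason, because 72.5% of its exonic bases belong also to the readthrough gene CHKB-CPT1B and it held only 148 counts.

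RefSeq promoter windows of GRCh38.p14, which run from 250 bases before to 50 bases after a gene's start, matched 36 of the 44 members, and for 22 of the 35 windows in which the partner's start could be placed, that start lay inside the same 300 bases. The 5 windows below are shown because both starts fall in them and because their pairs behaved in different ways in the results that follow: RAB30 and DNAJC3 rose while their divergent transcripts were lower, OSER1 and NUP50 rose together with theirs, and GAS6-DT rose while GAS6 was lower. Each is written 5′ to 3′ on the strand of the divergent transcript, whose start is base 251, and capitals mark the 5-base cores of the hypoxia response element, ACGTG or GCGTG, on either strand. The partner starts on the other strand at base 82 in RAB30-DT, base 37 in DNAJC3-DT, base 62 in OSER1-DT, base 107 in NUP50-DT and base 150 in GAS6-DT.
RAB30-DT, chr11:83071816-83072115 plus strand: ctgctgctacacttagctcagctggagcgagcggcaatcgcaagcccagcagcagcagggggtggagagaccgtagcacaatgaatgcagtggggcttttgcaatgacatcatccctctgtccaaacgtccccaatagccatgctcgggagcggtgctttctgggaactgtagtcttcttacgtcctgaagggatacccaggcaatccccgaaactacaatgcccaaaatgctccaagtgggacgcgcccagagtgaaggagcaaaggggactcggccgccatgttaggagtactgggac
DNAJC3-DT, chr13:95676876-95677175 minus strand: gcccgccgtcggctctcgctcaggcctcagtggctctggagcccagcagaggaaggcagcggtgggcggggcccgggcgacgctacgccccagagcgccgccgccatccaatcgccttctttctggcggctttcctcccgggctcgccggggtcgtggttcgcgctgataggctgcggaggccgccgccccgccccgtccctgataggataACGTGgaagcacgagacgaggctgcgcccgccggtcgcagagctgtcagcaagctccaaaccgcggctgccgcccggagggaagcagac
OSER1-DT, chr20:44210710-44211009 plus strand: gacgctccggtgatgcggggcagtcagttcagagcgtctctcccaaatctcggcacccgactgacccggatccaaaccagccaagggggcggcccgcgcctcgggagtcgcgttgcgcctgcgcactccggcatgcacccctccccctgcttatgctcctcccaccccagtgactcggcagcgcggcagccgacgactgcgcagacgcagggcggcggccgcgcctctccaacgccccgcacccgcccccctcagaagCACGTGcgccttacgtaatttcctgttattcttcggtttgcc
NUP50-DT, chr22:45163732-45164031 minus strand: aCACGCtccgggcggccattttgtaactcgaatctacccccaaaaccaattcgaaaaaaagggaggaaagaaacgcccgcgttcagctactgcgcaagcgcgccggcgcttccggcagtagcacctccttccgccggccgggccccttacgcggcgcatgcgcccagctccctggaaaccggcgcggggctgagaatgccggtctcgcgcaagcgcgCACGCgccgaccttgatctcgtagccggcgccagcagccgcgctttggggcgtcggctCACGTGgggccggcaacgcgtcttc
GAS6-DT, chr13:113863927-113864226 plus strand: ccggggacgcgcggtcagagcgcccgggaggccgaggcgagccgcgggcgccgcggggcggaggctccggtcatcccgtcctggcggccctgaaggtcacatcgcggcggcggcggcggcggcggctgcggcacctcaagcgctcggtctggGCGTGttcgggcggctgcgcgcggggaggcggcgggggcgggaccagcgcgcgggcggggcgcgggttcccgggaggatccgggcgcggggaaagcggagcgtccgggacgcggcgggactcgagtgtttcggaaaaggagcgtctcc

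The core of the hypoxia response element was found once in the windows of DNAJC3-DT and GAS6-DT, at 2 overlapping positions in OSER1-DT, at 4 positions in NUP50-DT of which 2 overlap, and not in RAB30-DT. It was present in 26 of 36 member windows (72.2%), against 48.4% of 27305 RefSeq windows of the same length. The metal response element core (TGCACNC or TGCGCNC) was in 17 member windows (47.2% against 29.3%), an antioxidant response element core (TGACNNNGC) in 11 (30.6% against 13.6%) and a heat shock element core (GAANNTTC or TTCNNGAA) in 2 (5.56% against 13.7%), each searched on both strands. The member windows were richer in G and C than the others, with a median of 69.3% against 58.3%. In the 39 matched windows of the partners the hypoxia core was present in 59.0% and the metal core in 48.7%. The antioxidant core was in 20.5% of these partner windows and the heat shock core in 7.69%, and their median G and C content was 68%. All these motif counts are matches of letters, and the part of base composition in them was not tested.

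The 9 libraries held 15998136 to 24209427 counts, and 43 or 44 of the 44 members had at least 1 count in each. TMM normalization factors, which scale libraries by the bulk of their genes, were 0.770 to 0.795 with CoCl2, 1.11 to 1.12 in control and 1.14 to 1.15 with OD, and CPM below are counts divided by library totals so scaled. With library size alone the median log2 fold change of all 15944 tested genes with CoCl2 was -0.55, against -0.05 after TMM scaling. The median of the members minus that of all genes was -0.87 under either scaling. A change of scaling shifts every gene by nearly the same amount, so this difference could hardly vary and is no check on the scaling. All 9 intestinal epithelial markers examined, among them EPCAM, CDH1 and VIL1, were counted in every library, although VIL1 and KRT20 were lower with CoCl2. The 7 markers of other cell types summed to 174 to 560 counts a library, of which COL1A1 held 135 to 480, 3 of the 7 were counted in every library, PTPRC had 3 counts or fewer, and their part in the results was not tested. In bulk RNA, fewer cells making a transcript and less of it per cell cannot be told apart.

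Divergent transcripts were mostly lower with CoCl2, with a negative log2 fold change for 32 of the 44. Of the 44 members, all of which passed the expression filter, 21 fell and 7 rose by the study's thresholds, which ask for an adjusted p under 0.05 together with more than 1 log2 unit of change (edgeR quasi-likelihood test, Benjamini-Hochberg adjustment over 15944 genes). Across all tested genes the same rule called 23.4% lower and 19.9% higher, and across the 773 tested lncRNA it called 36.0% lower and 18.4% higher. With library size alone 26 members fell and 6 rose, and of all genes 5839 were called lower and 1833 higher. The median log2 fold change was -0.92 over the members, -0.43 over the lncRNA and -0.07 over the 12860 coding genes. Because the summed counts chose the members, a transcript made in 1 group alone had to differ: 12 members had 34 or more counts in the control libraries but fewer with CoCl2, and 4 the reverse. Among the 27 members with at least 34 counts in each of the 3 groups, 11 fell and 3 rose, with a median of -0.83. Summed over the 44 members, the level was 175 ± 4.89 CPM in control, 140 ± 3.18 with CoCl2 and 150 ± 4.73 with OD (SD, n = 3). Relative to the summed counts of their partners it was 34.2 ± 1.21 per 1000 in control, 17.3 ± 0.677 with CoCl2 and 30.7 ± 0.670 with OD.

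**Figure D1:**
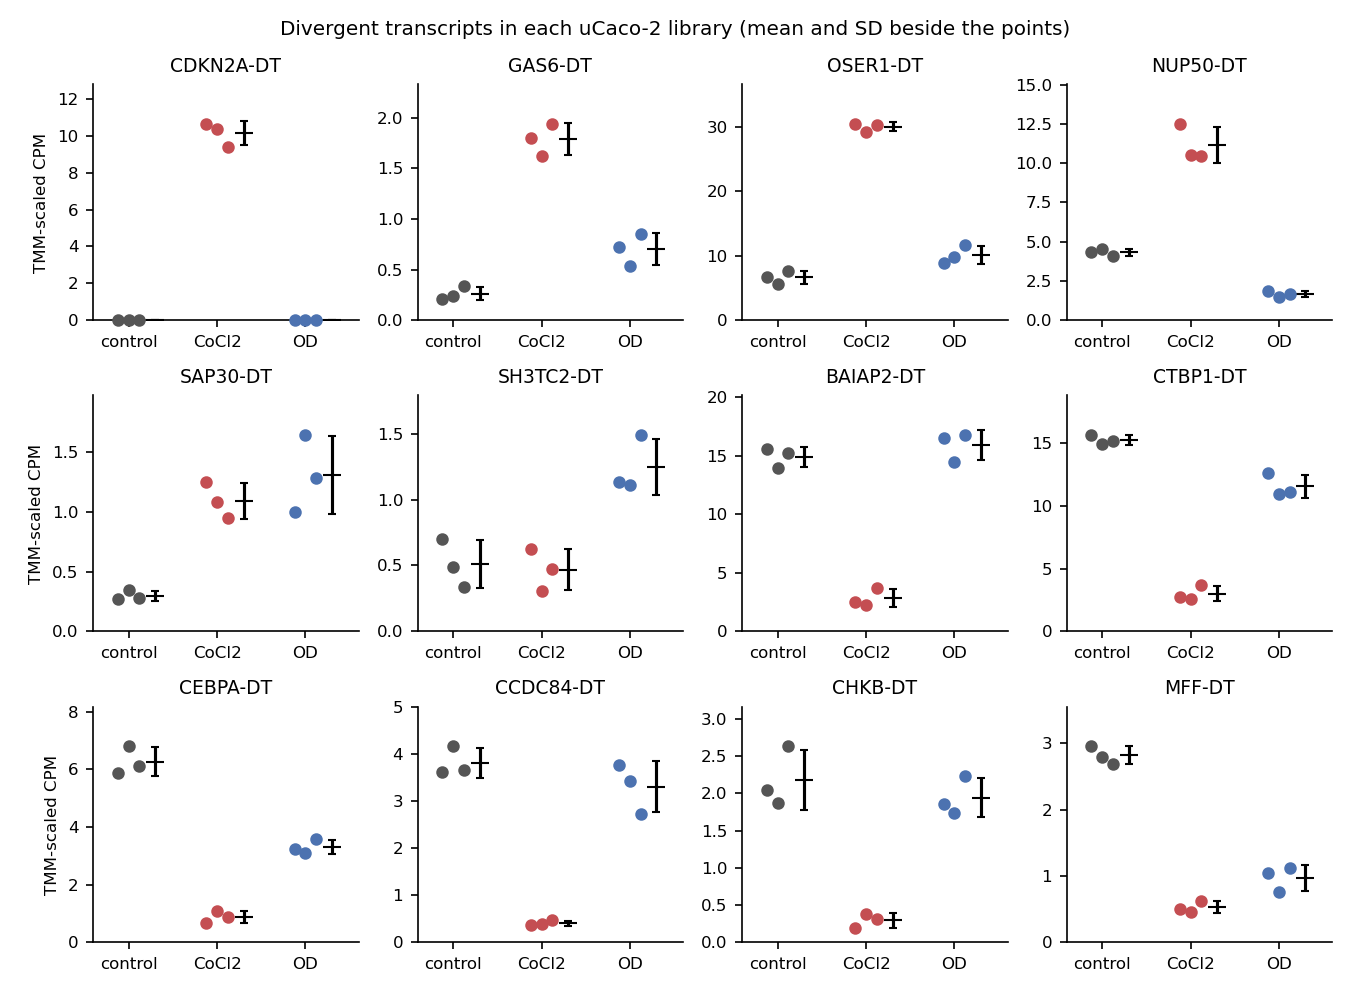
TMM-scaled CPM of 12 divergent transcripts in each of the 9 uCaco-2 libraries (control grey, CoCl2 red, OD blue, 3 replicates each), with the mean and SD as a black bar beside the points; each panel has its own vertical axis from 0. CDKN2A-DT was at 0 in all control and OD libraries and at 9.39 to 10.6 CPM with CoCl2, while BAIAP2-DT and CTBP1-DT were below 4 CPM in the CoCl2 libraries and above 10 CPM in the others.

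The largest rise was that of CDKN2A-DT, named for a locus that encodes cell cycle inhibitors. It had 0 counts in all 3 control libraries and all 3 OD libraries, and 171, 134 and 179 counts with CoCl2. Against a floor of 3 counts in each library this was at least 63.7-fold higher than control and at least 70.8-fold higher than OD. CDKN2A itself moved the other way, at 10.9, 10.1 and 12.4 CPM in control and 7.28, 6.66 and 7.34 CPM with CoCl2 (log2 fold change -0.64 ± 0.11 (SE), adjusted p = 7.8e-07, below the fold threshold). Since CDKN2A-DT starts beyond the 3′ end of CDKN2A, this pair does not compare both sides of 1 promoter.

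GAS6-DT, opposite the gene of the secreted ligand for TAM receptor kinases, was at 0.215, 0.245 and 0.337 CPM in the control libraries and 1.8, 1.63 and 1.94 CPM with CoCl2. The groups did not overlap, and the log2 fold change was 2.74 ± 0.35 (SE, adjusted p = 1.2e-10). OSER1-DT, opposite a gene named for its response to oxidative stress, was at 6.78, 5.59 and 7.57 CPM in control and 30.4, 29.2 and 30.3 CPM with CoCl2, a log2 fold change of 2.18 ± 0.095. For both, every CoCl2 library was more than 3 times as high as every control library. SAP30-DT, whose partner encodes a subunit of the Sin3 histone deacetylase complex, went from 0.269, 0.343 and 0.28 CPM to 1.24, 1.08 and 0.944 CPM (1.83 ± 0.38). RPP38-DT, opposite a protein subunit of RNase P, went from 0.323, 0.294 and 0.617 CPM to 1.43, 1.24 and 1.31 CPM (1.70 ± 0.34). The other called rises were CD2BP2-DT at 1.64 ± 0.20 and NUP50-DT at 1.36 ± 0.12. NUP50-DT fell under the fold threshold with library size alone, at 0.85, with an adjusted p of 1.1e-08.

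Among the members that fell, CCDC84-DT had the largest change. Its partner, now named CENATAC, encodes a protein of the minor spliceosome. It was at 3.6, 4.17 and 3.65 CPM in control and at 0.373, 0.387 and 0.472 CPM with CoCl2, with a log2 fold change of -3.18 ± 0.26 (SE, adjusted p = 2.4e-17). CHKB-DT, opposite a choline kinase gene, had 38, 38 and 47 counts in control and 3, 5 and 6 counts with CoCl2 (-2.87 ± 0.33). CEBPA-DT, opposite the gene of the transcription factor C/EBP alpha, went from 5.86, 6.81 and 6.11 CPM to 0.684, 1.08 and 0.891 CPM (-2.83 ± 0.20). For all 3, every CoCl2 library was below every control library. MFF-DT, opposite a receptor for the mitochondrial fission machinery, went from 2.96, 2.79 and 2.69 CPM to 0.498, 0.464 and 0.629 CPM (-2.37 ± 0.27). BAIAP2-DT, opposite the gene of the membrane-bending scaffold IRSp53, went from 15.5, 13.9 and 15.3 CPM to 2.55, 2.24 and 3.72 CPM (-2.34 ± 0.13). CTBP1-DT, opposite a transcriptional corepressor gene, went from 15.7, 14.9 and 15.1 CPM to 2.74, 2.55 and 3.67 CPM (-2.32 ± 0.12). BAIAP2-DT and CTBP1-DT rest on 1990 and 1744 counts, and their standard errors of 0.13 and 0.12 were the smallest among these 6.

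Grouped by what the partners do, the falls were spread over all groups but the one left at the end. Beside every group count stand the shares of the same rule: 23.4% of all tested genes lower and 19.9% higher. Among the tested lncRNA these were 36.0% and 18.4%, and of the 44 members 21 fell and 7 rose. The groups are small, and whether any differed from these shares was not tested. All but 1 of the 8 divergent transcripts of metabolic and mitochondrial genes fell with CoCl2 and none rose, with a median log2 fold change of -1.70. They were CHKB-DT, MFF-DT, FLVCR1-DT (-1.84, heme and choline transport), PCCA-DT (-1.79, propionyl-CoA carboxylase), NDUFA6-DT (-1.61, respiratory complex I), ODC1-DT (-1.45, polyamine synthesis) and GMDS-DT (-1.35, GDP-fucose synthesis). MMADHC-DT, opposite a cobalamin trafficking gene, was the one that did not pass the test, at 0.915, 1.08 and 0.897 CPM in control and 0.622, 0.929 and 0.472 CPM with CoCl2. Of the 8 partners in this metabolic group 4 fell and 1 rose. Their median log2 fold change was -0.57, the only negative partner median among the groups. Of 8 opposite transcription and chromatin genes, 5 fell and 1 rose, the falls including RELA-DT (-1.71), KDM7A-DT (-1.47) and MAFG-DT (-1.11). The MAFG-DT call rests on single libraries: without CoCl2 replicate 2 its log2 fold change was -0.88 and without control replicate 3 it was -0.87, both under the fold threshold.

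Of 7 opposite kinase and signalling genes, 4 fell and none rose: BAIAP2-DT, MAP3K2-DT (-1.92), NCK1-DT (-1.43) and FZD4-DT (-1.04). FZD4-DT, opposite a Wnt receptor gene, had 6, 2 and 15 counts with CoCl2, and its log2 fold change was -0.71 with an adjusted p of 0.077 without CoCl2 replicate 2, -0.89 without CoCl2 replicate 1 and -0.92 without control replicate 2. Of 4 opposite genes of the secretory pathway, 2 fell, RAB30-DT (-1.63) and MAN1B1-DT (-1.58). Of 5 opposite genes of adhesion, surface and cytoskeleton, EPCAM-DT fell (-1.44) and GAS6-DT rose. The translation, RNA processing and ribosome group was split, with CD2BP2-DT and RPP38-DT higher and 2 members, CCDC84-DT among them, lower of 7. The 5 members whose partners were in none of these groups had 3 rises and no fall, with a median log2 fold change of 1.36. CDKN2A-DT, which does not share a promoter with its partner, OSER1-DT and NUP50-DT rose, while CAPN10-DT (0.77) and FAM111A-DT (-0.25) did not pass both thresholds.

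The other 16 members did not pass both thresholds with CoCl2, with log2 fold changes from -0.99 (CRIM1-DT) to 0.88 (LLPH-DT). Of these, 4 were higher and 6 lower at an adjusted p under 0.05 but under the fold threshold, and 6 had an adjusted p above 0.05. GARS1-DT, with the most counts of all members and opposite the glycyl-tRNA synthetase gene, was one of the 6 that were lower, at 14.0, 14.9 and 13.1 CPM in control and 13.2, 10.8 and 11.0 CPM with CoCl2. EIF2AK3-DT, opposite the gene of the stress kinase PERK, was at 1.78, 2.01 and 2.36 CPM and 0.933, 1.32 and 1.21 CPM (-0.83 ± 0.24). TMED2-DT and ZKSCAN2-DT were among those above 0.05, with 1.93, 1.93 and 1.84 CPM with CoCl2 against 2.04, 1.62 and 1.23 CPM in control for TMED2-DT.

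OD changed far fewer of these transcripts by the same rule. With OD, 3 members rose and 3 fell, where the rule called 9.09% of all genes higher and 4.16% lower, and the median log2 fold change of the members was -0.13 against -0.01 for all genes. SAP30-DT was at 0.999, 1.64 and 1.28 CPM with OD against 0.269, 0.343 and 0.28 CPM in control (2.11 ± 0.35 (SE), adjusted p = 3.3e-07). GAS6-DT was at 0.727, 0.533 and 0.852 CPM (1.38 ± 0.41, adjusted p = 0.0025), between its control and CoCl2 levels in every library. SH3TC2-DT, opposite a gene of the endocytic recycling machinery, was at 0.699, 0.49 and 0.337 CPM in control, 0.622, 0.31 and 0.472 CPM with CoCl2 and 1.14, 1.11 and 1.49 CPM with OD (1.26 ± 0.32 for OD). It was the only member called with OD but not with CoCl2, and its partner SH3TC2 was also higher with OD, at 0.95, just under the fold threshold. None of the 3 rises had 34 counts in the control libraries.

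The falls with OD included MFF-DT at 1.04, 0.755 and 1.12 CPM (-1.54 ± 0.22, adjusted p = 7.2e-09) and NUP50-DT at 1.86, 1.51 and 1.65 CPM (-1.37 ± 0.17, adjusted p = 9.6e-11). NUP50-DT went in opposite directions with the 2 compounds, from 4.36, 4.56 and 4.09 CPM in control to 12.5, 10.5 and 10.4 CPM with CoCl2. Of the 38 members not called with OD, 3 were higher and 13 lower at an adjusted p under 0.05. The 16 included ODC1-DT (-0.97), CEBPA-DT (-0.93), DNAJC3-DT (-0.90), RAB30-DT (-0.51), GARS1-DT (0.43) and OSER1-DT (0.61). Both comparisons use the same 3 control libraries, so a high or low control value enters both.

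Compared directly, 18 members were lower with CoCl2 than with OD and 7 were higher, where the rule called 23.8% of all genes lower and 17.5% higher. With library size alone the split was 27 lower and 4 higher. That fit called 6026 of all 15944 genes lower and 1351 higher. Among the members higher with CoCl2, NUP50-DT had the largest difference after CDKN2A-DT, 2.73 ± 0.14 (SE, adjusted p = 8.6e-27), followed by OSER1-DT (1.58 ± 0.086), CD2BP2-DT (1.55 ± 0.20) and GAS6-DT (1.37 ± 0.27). RPP38-DT (1.34 ± 0.31) and CAPN10-DT (1.13 ± 0.14), the latter opposite a calpain protease gene, were the others. With library size alone GAS6-DT, RPP38-DT and CAPN10-DT were at 0.82, 0.80 and 0.58, under the fold threshold. CCDC84-DT (-2.98 ± 0.27), CHKB-DT (-2.70 ± 0.33), BAIAP2-DT (-2.44 ± 0.13), EPCAM-DT (-1.96 ± 0.38) and CTBP1-DT (-1.92 ± 0.13) were lowest with CoCl2 relative to OD. EPCAM-DT, opposite the gene of the epithelial adhesion molecule that serves as a marker of these cells, was at 0.772, 1.33 and 1.92 CPM with OD and 0.311, 0.387 and 0.315 CPM with CoCl2. SAP30-DT did not pass the test between the compounds, with a difference of -0.27 ± 0.27.

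The partners moved differently. With CoCl2, 10 of the 44 coding partners rose and 6 fell, with a median log2 fold change of 0.35, against -0.92 for the divergent transcripts, where the rule called 19.9% of all genes higher and 23.4% lower. This split depends on the scaling: with library size alone 6 partners rose and 9 fell. That fit called 1833 of all 15944 genes higher and 5839 lower. The median of the partners was then -0.15, against -1.42 for the transcripts and -0.55 for all genes. With OD 2 partners rose, KDM7A (1.27 ± 0.10) and FZD4 (1.30 ± 0.056), and none fell by the rule. At an adjusted p under 0.05 alone, 19 had a positive and 16 a negative log2 fold change. Over the 44 pairs, the log2 fold change of the transcript and that of its partner had a Pearson r of 0.01 and a Spearman rho of 0.07 with CoCl2, and r was 0.19 without CDKN2A-DT. With OD r was 0.40 and rho 0.32. The sign was the same in 20 of 44 pairs with CoCl2 (26 with library size alone) and in 24 with OD. In 229 other noncoding and coding pairs with opposite starts within 1000 bases, rho was 0.36 with CoCl2 and 0.28 with OD, and in 1034 coding pairs it was 0.24 and 0.16. These correlations run across genes of the same libraries, which share the normalization and are not independent replicates.

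**Figure D2:**
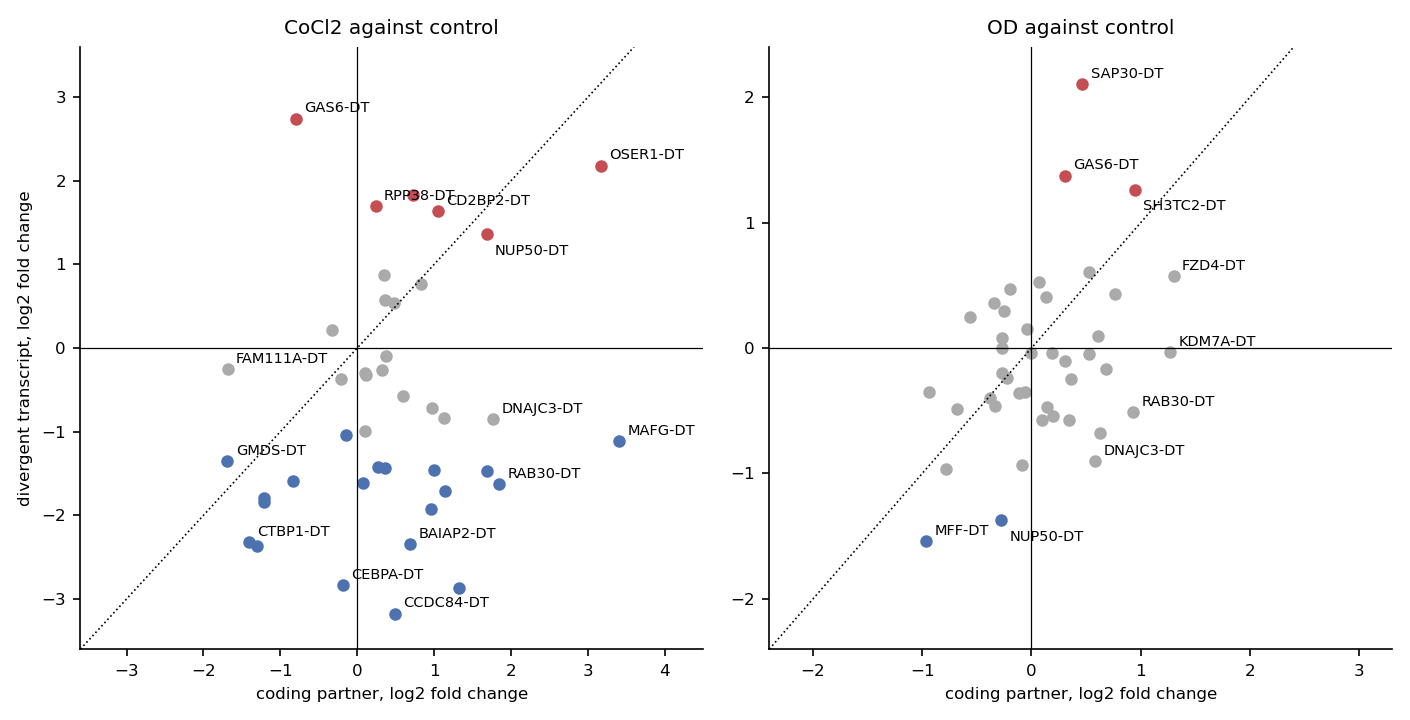
Log2 fold change of each divergent transcript (vertical axis) against that of its coding partner (horizontal axis), with CoCl2 (left) and OD (right) against control, for 42 of the 44 pairs; CDKN2A-DT, which had no control counts, is not plotted. Red and blue mark transcripts that rose or fell by the rule, grey the others, and the dotted line marks equal change; with CoCl2 MAFG, RAB30, DNAJC3 and BAIAP2 lie to the lower right, with the partner higher and the transcript lower, and OSER1, NUP50 and CD2BP2 to the upper right.

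The pairs fell into 5 kinds with CoCl2. In 3 pairs both sides rose, in 5 both fell, in 5 the transcript fell while the partner rose, in 11 the transcript fell with no call on the partner, and in 4 the transcript rose with no call on the partner. No pair had a called rise of the transcript and a called fall of the partner with TMM scaling, but with library size alone 2 did, as GAS6 (-1.30, adjusted p = 3.4e-18) and CDKN2A (-1.14, adjusted p = 1.2e-12) then passed the fold threshold. In that fit both sides rose in 1 pair, both fell in 6, and the transcript fell while the partner rose in 4. Of the remaining 16 transcripts, which were not called with TMM scaling, 2 had a partner that rose (DNAJC3 and EIF2AK3). Another 1 had a partner that fell (FAM111A). Called separately in the same fit, 21 transcripts fell and 7 rose, and 10 partners rose and 6 fell. Whether any kind held more pairs than these separate calls alone would give was not tested. The kinds are not given for other noncoding and coding pairs.

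The 3 pairs that rose together were OSER1, NUP50 and CD2BP2. CD2BP2-DT shares 14.7% of its exonic bases with CD2BP2 and TBC1D10B on the other strand, the largest such share of all members. The part of shared reads in the joint rise of that pair was not tested. OSER1 was at 86.3, 81.2 and 79.8 CPM in control and 793, 722 and 713 CPM with CoCl2 (3.17 ± 0.046 (SE)), a larger rise than that of OSER1-DT (2.18 ± 0.095). NUP50, a nucleoporin gene, was at 147, 149.9 and 146 CPM and 492, 468 and 462 CPM (1.68 ± 0.042), and CD2BP2, which encodes a splicing protein, at 100.2, 97.7 and 92.8 CPM and 205, 195 and 202 CPM (1.05 ± 0.045). The log2 ratio of transcript to partner, which does not depend on library scaling, changed by -0.99 ± 0.12 for OSER1, -0.33 ± 0.16 for NUP50 and 0.56 ± 0.22 for CD2BP2 (limma on log2 ratios), none of which passed both thresholds. With OD, NUP50 was at 122, 117 and 125 CPM (-0.28 ± 0.043) and NUP50-DT fell further, so that their ratio changed by -1.09 ± 0.16 (adjusted p = 4.8e-08). The CD2BP2 rise fell under the fold threshold with library size alone, at 0.54.

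The 5 pairs with a fall of the transcript and a rise of the partner were MAFG, RAB30, KDM7A, RELA and CHKB. MAFG, a small Maf protein that pairs with NRF and BACH factors at antioxidant response elements, rose from 43.9, 41.4 and 42.9 CPM to 475, 445 and 437 CPM with CoCl2 (3.40 ± 0.048 (SE)). MAFG-DT, which starts 94 bases away on the other strand, went from 1.67, 2.01 and 2.97 CPM to 0.809, 0.542 and 1.52 CPM (-1.11 ± 0.27). RAB30, a Golgi GTPase gene, rose from 21.3, 25.4 and 22.4 CPM to 81.9, 83.3 and 83.2 CPM (1.84 ± 0.06), while RAB30-DT went from 10.6, 11.9 and 11.6 CPM to 3.73, 3.48 and 3.78 CPM (-1.63 ± 0.12). In both pairs the CoCl2 libraries lay outside the control range on both sides of the promoter. KDM7A, a histone demethylase gene, rose from 5.6, 7.06 and 5.44 CPM to 20.7, 19.2 and 19.0 CPM (1.69 ± 0.10), and KDM7A-DT had 20, 18 and 15 counts in control and 3, 5 and 8 counts with CoCl2. RELA, the gene of an NF-kB subunit, rose from 40.9, 42.2 and 44.7 CPM to 92.3, 90.2 and 98.1 CPM (1.14 ± 0.055), and RELA-DT went from 1.08, 1.18 and 0.841 CPM to 0.187, 0.464 and 0.315 CPM. For CHKB, at 12, 8 and 10 counts in control and 30, 13 and 21 with CoCl2, the overlap with its readthrough gene makes the rise uncertain. The RELA rise was 0.63 and the CHKB rise 0.82 with library size alone, both under the fold threshold, while those of MAFG, RAB30 and KDM7A remained called.

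DNAJC3, which encodes a co-chaperone of the endoplasmic reticulum, was another such gene, although DNAJC3-DT missed the fold threshold. DNAJC3 rose from 45.5, 57.0 and 52.1 CPM to 186, 177 and 163 CPM with CoCl2 (1.76 ± 0.058), and DNAJC3-DT went from 2.8, 4.02 and 2.86 CPM to 1.74, 1.39 and 2.15 CPM (-0.85 ± 0.20, adjusted p = 0.00014). EIF2AK3, the PERK gene, rose by 1.13 ± 0.056, while EIF2AK3-DT was at -0.83. With library size alone EIF2AK3 was at 0.62, under the fold threshold, and EIF2AK3-DT (-1.34) and DNAJC3-DT (-1.35) were called falls. ODC1, MAP3K2 and NIPBL, the last a cohesin loader gene, were at 1.00, 0.96 and 0.98 with CoCl2, just under the fold threshold, and their transcripts at -1.45, -1.92 and -0.72. BAIAP2 was at 0.68 and CEBPA at -0.18, beside log2 fold changes of -2.34 and -2.83 for their transcripts.

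**Figure D3:**
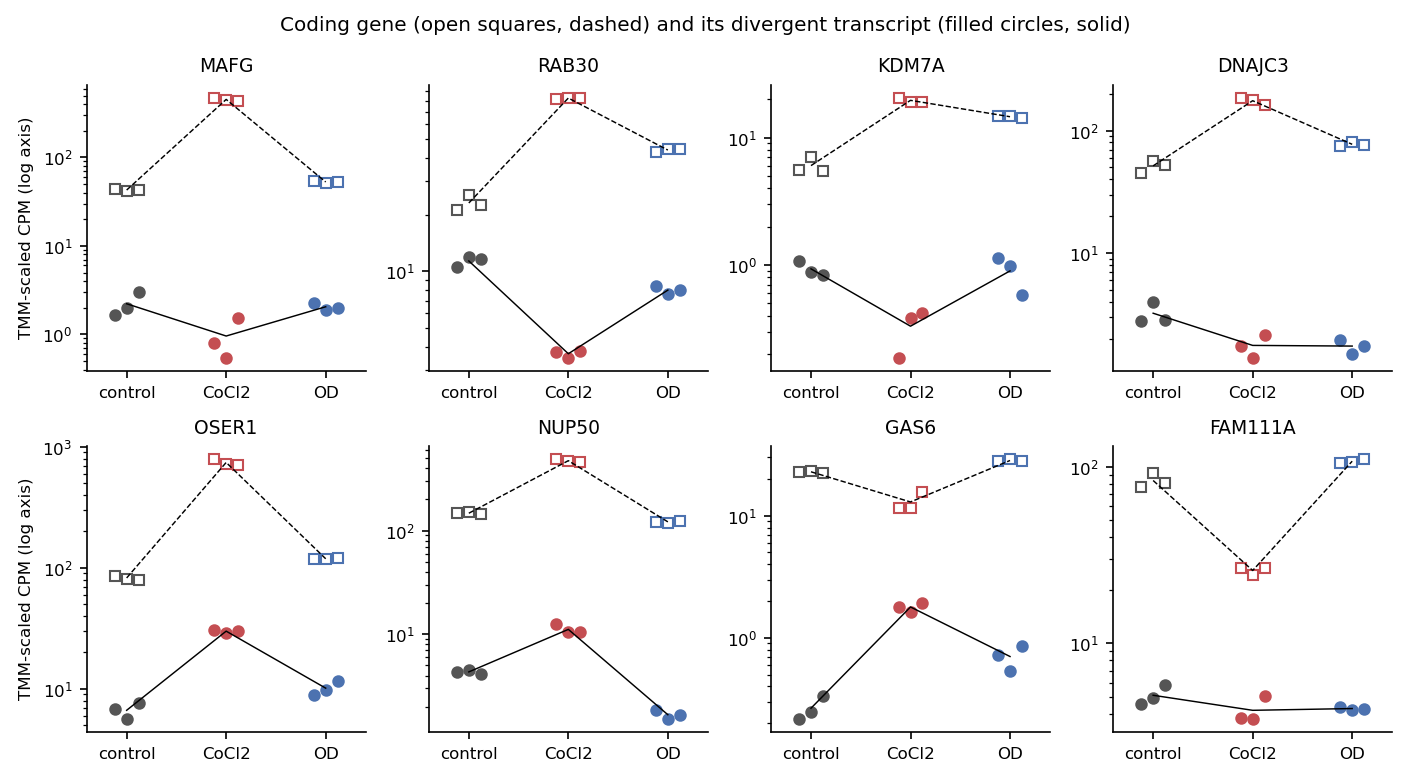
TMM-scaled CPM on a log axis for 8 coding genes (open squares, dashed line through the means) and their divergent transcripts (filled circles, solid line) in each of the 9 libraries, by group. In the MAFG, RAB30, KDM7A and DNAJC3 panels the lines diverge with CoCl2, in OSER1 and NUP50 both lines rise with CoCl2, and in GAS6 and FAM111A the coding gene is lower with CoCl2; levels are not scaled by length, so the 2 genes of a panel are compared only across groups.

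Both sides fell together in the pairs of GMDS, FLVCR1, MFF, PCCA and CTBP1. On the other strand, CTBP1-DT shares 6.37% of its exonic bases with CTBP1, and MFF-DT shares 8.75% with MFF and COL4A3. The part of shared reads in these joint falls was not tested. CTBP1 went from 63.5, 64.5 and 69.1 CPM to 23.5, 23.4 and 27.0 CPM (-1.40 ± 0.062), and MFF from 106, 103 and 97.3 CPM to 42.8, 38.6 and 42.9 CPM (-1.30 ± 0.055). The transcripts of these 2 fell further than the partners, with changes of the log2 ratio of -0.94 ± 0.13 and -1.04 ± 0.27, of which only the second passed both thresholds. It was -0.98 without CoCl2 replicate 1. For GMDS the ratio changed by 0.31 ± 0.25, within its error.

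In the pairs of GAS6 and FAM111A the ratio rose with CoCl2 while the coding gene was lower. GAS6 was at 22.9, 23.1 and 22.5 CPM in control and 11.6, 11.5 and 15.7 CPM with CoCl2 (-0.80 ± 0.086, under the fold threshold with TMM scaling), so that the log2 ratio of GAS6-DT to GAS6 went from -6.57, -6.42 and -5.95 in control to between -2.66 and -3.0 with CoCl2, a change of 3.49 ± 0.35 (SE, adjusted p = 6.8e-13). FAM111A, a protease gene, fell from 77.0, 92.5 and 80.7 CPM to 26.6, 24.2 and 26.7 CPM (-1.69 ± 0.062), while FAM111A-DT was at 4.52, 4.9 and 5.83 CPM and 3.79, 3.71 and 5.03 CPM. The ratio of that pair rose by 1.40 ± 0.16 although the transcript itself was not called.

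Across all pairs, the ratio of transcript to partner fell in 21 of 44 pairs with CoCl2 and rose in 5 (adjusted p under 0.05 and a change above 1 in size, limma over 1326 pairs). The same rule called 39.2% lower and 11.7% higher among the 283 noncoding and coding pairs tested, which include the members, and the median change was -0.97 for the 44 and -0.51 for the 229 other pairs. MAFG-DT had the largest drop relative to its partner: the log2 ratio was -4.70, -4.35 and -3.84 in control and -9.14, -9.58 and -8.14 with CoCl2, a change of -4.66 ± 0.28 (SE, adjusted p = 9.9e-17). CHKB-DT (-4.04 ± 0.43), CCDC84-DT (-3.61 ± 0.23), RAB30-DT (-3.47 ± 0.13), KDM7A-DT (-3.17 ± 0.38) and BAIAP2-DT (-3.09 ± 0.14) followed. Besides CDKN2A-DT, whose ratio has no control counts, the rises were GAS6-DT, RPP38-DT (1.47 ± 0.36), FAM111A-DT and SAP30-DT (1.05 ± 0.34). The SAP30-DT call was lost without CoCl2 replicate 1 (0.99), control replicate 1 (0.87) or control replicate 3 (0.95). The FZD4-DT drop of -1.17 ± 0.38 was lost without CoCl2 replicate 2 (-0.63, adjusted p = 0.085), that of MMADHC-DT (-1.13 ± 0.30) without CoCl2 replicate 3 (-0.96) and that of CRIM1-DT (-1.07 ± 0.20) without the same library (-0.99).

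**Figure D4:**
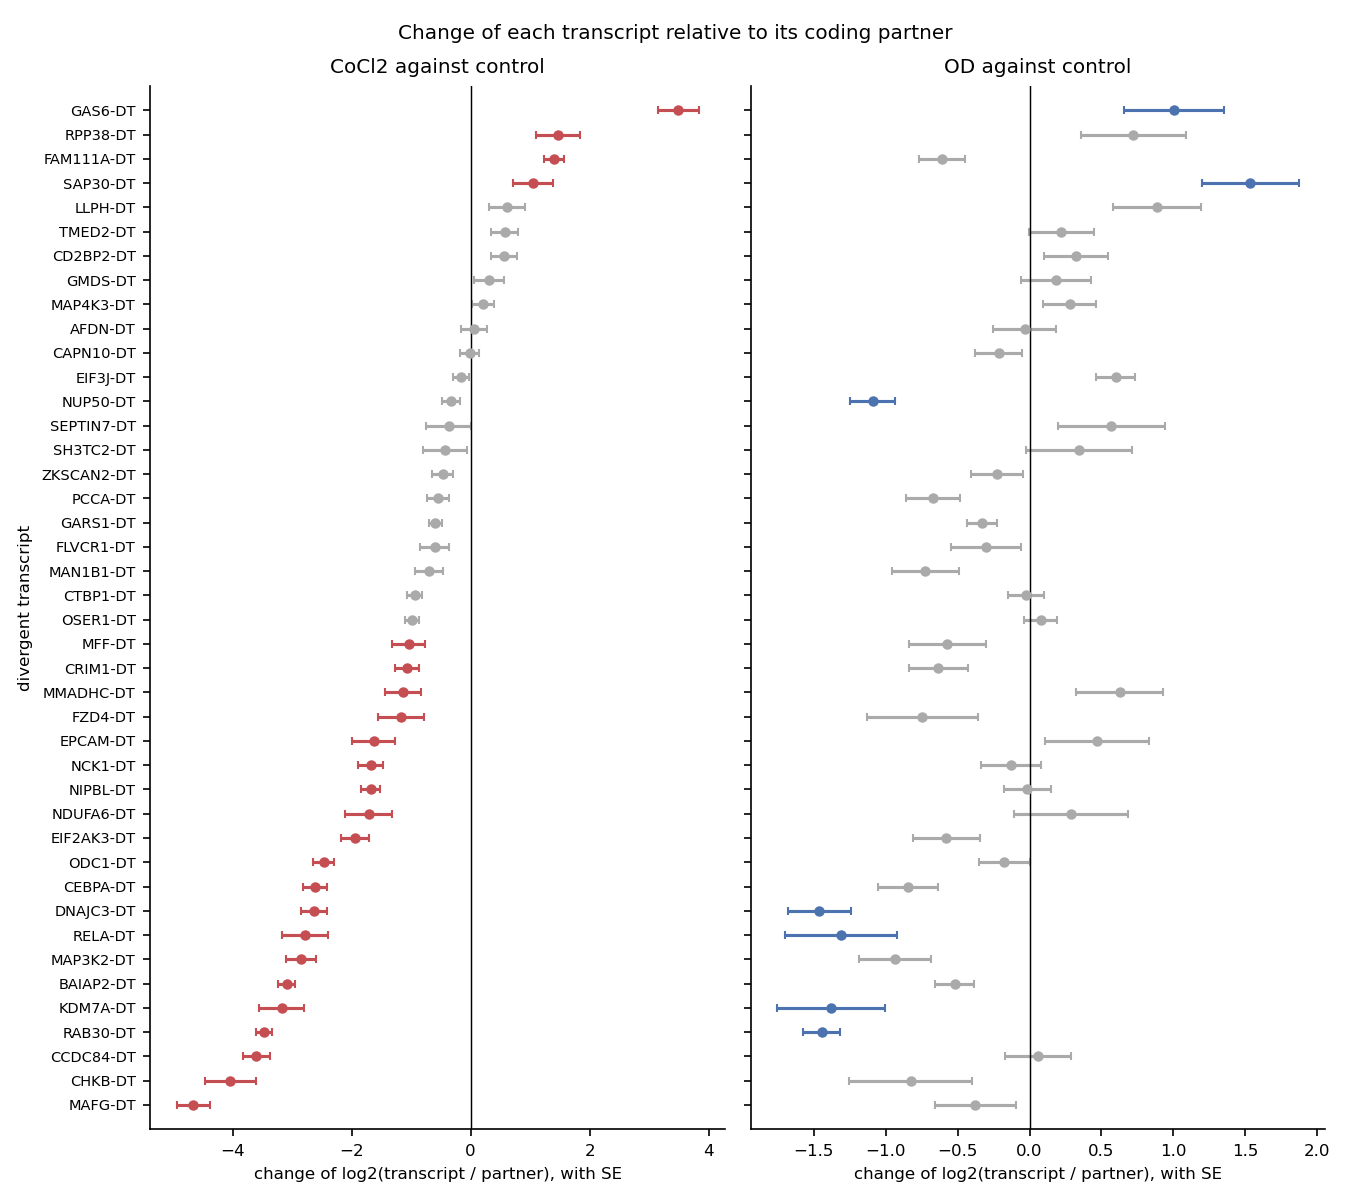
Change of the log2 ratio of divergent transcript to coding partner (points, with SE bars) for 42 of the 44 pairs in the order of the CoCl2 values, with CoCl2 (left) and OD (right) against control; coloured points passed both thresholds and the 2 horizontal axes differ in range. The CoCl2 values run from -4.66 for MAFG-DT to 3.49 for GAS6-DT, and the OD values from -1.46 for DNAJC3-DT to 1.54 for SAP30-DT.

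With OD the ratio fell in 5 pairs and rose in 2, where the rule called 7.42% of the noncoding and coding pairs lower and 3.18% higher, and the median change was -0.20. DNAJC3-DT dropped most relative to its partner (-1.46 ± 0.22 (SE), adjusted p = 1.1e-07), at 1.95, 1.51 and 1.76 CPM while DNAJC3 was at 75.2, 80.9 and 75.6 CPM. RAB30-DT (-1.45 ± 0.13), KDM7A-DT (-1.38 ± 0.38), RELA-DT (-1.31 ± 0.39) and NUP50-DT were the others. RAB30 was at 42.6, 44.5 and 44.6 CPM and RAB30-DT at 8.36, 7.59 and 7.93 CPM with OD, both between control and CoCl2. KDM7A-DT was at 1.14, 0.976 and 0.586 CPM, which overlapped its control range, while KDM7A was at 14.7, 14.9 and 14.2 CPM, above all its control libraries. The rises were SAP30-DT (1.54 ± 0.34) and GAS6-DT (1.01 ± 0.35, adjusted p = 0.012). The GAS6-DT value was under the fold threshold without control replicate 1 (0.88), control replicate 2 (0.95), OD replicate 1 (0.96) or OD replicate 3 (0.85).

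Between the compounds, the ratio was lower with CoCl2 than with OD in 18 pairs and higher in 3, where the rule called 34.3% and 9.54% of the noncoding and coding pairs, with a median difference of -0.73. MAFG-DT (-4.28 ± 0.28), CCDC84-DT (-3.66 ± 0.23) and CHKB-DT (-3.21 ± 0.43) were lowest, and GAS6-DT (2.49 ± 0.35) and FAM111A-DT (2.01 ± 0.16) higher with CoCl2, besides CDKN2A-DT. RAB30-DT, KDM7A-DT, RELA-DT and DNAJC3-DT, called lower in both comparisons with control, were also lower with CoCl2 than with OD, by -2.03 ± 0.13, -1.79 ± 0.38, -1.47 ± 0.39 and -1.17 ± 0.22.

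The genes whose products end or degrade divergent transcripts were measured in the same libraries, as a list of 45, all of which passed the expression filter. With CoCl2 7 of the 45 rose and 5 fell, with a median log2 fold change of 0.14, where the rule called 19.9% of all genes higher and 23.4% lower. With OD none rose and 1 fell, with a median of -0.33, where it called 9.09% higher and 4.16% lower. None of the 45 rose and 11 fell with CoCl2 when library size alone was used. That fit called 5839 of all 15944 genes lower and 1833 higher. The median of the 45 was then -0.36, against -0.55 for all genes. The 7 rises were then at 0.53 to 0.93, under the fold threshold. The falls with CoCl2 were the exosome subunits EXOSC2 (-2.11 ± 0.069), EXOSC5 (-1.74 ± 0.11) and EXOSC3 (-1.09 ± 0.078) and the Integrator subunits INTS3 (-1.37 ± 0.065) and INTS5 (-1.33 ± 0.10). The rises were ZCCHC8 (1.44 ± 0.06) and RBM7 (1.29 ± 0.06) of NEXT, ZC3H3 (1.42 ± 0.072) and RBM27 (1.39 ± 0.074) of PAXT, the cap-binding partner SRRT (1.03 ± 0.042), and INTS12 (1.29 ± 0.078) and INTS4 (1.09 ± 0.051) of Integrator. With OD the fall was EXOSC6 (-1.19 ± 0.066). Of the 13 exosome genes 9 had a negative log2 fold change with CoCl2 and 12 with OD. In the whole list of 45 these were 18 and 37, and among all 15944 tested genes 8216 and 8087. The part of these factors in the levels of the divergent transcripts was not tested.

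No single property of the pairs that the choice of members did not use ordered their responses closely. Over 44 pairs, the Spearman rho of the change of the ratio with the distance between the closest starts was -0.30 with CoCl2 and -0.29 with OD, with the summed counts of the partner -0.15 and 0.03, and with the exonic length of the transcript -0.04 and 0.13. With the G and C content of the 36 matched promoter windows it was -0.08 and -0.29. The pairs share the 9 libraries. The low counts of the divergent transcripts limit the precision: the median standard error of a member's log2 fold change was 0.23 with CoCl2, against 0.06 for a partner.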

How the data were processed

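uCaco-2 mRNA was sequenced by the authors from stranded poly(A) libraries as single-end reads of 75 nucleotides. Per the submitters' notes and the study's methods, reads were checked with FastQC 0.11.9, trimmed with cutadapt 2.10, aligned on GRCh38.p13 with STAR 2.7.5b and counted on GENCODE release 34; the counting tool and its strand setting are not given in the sources used here. The deposited values are whole raw counts per gene symbol, with 1 column per library, and 0 sample columns were left unused. The 44 members and all gene lists were chosen with earlier results of these data known.

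In R 4.3.3, edgeR 4.0.16 gave TMM factors, kept 15944 symbols by its expression filter and fitted a robust quasi-likelihood model over 9 libraries with 1 mean per group. P-values were adjusted by the Benjamini-Hochberg procedure, and calls needed both an adjusted p under 0.05 and more than 1 log2 unit of change. For 1326 pairs with opposite starts within 1000 bases or paired by name, limma 3.58.1 tested the log2 ratio of counts, each with 0.5 added. Both tests were checked on simulated data: 192 of 197 genes and 41 of 41 pairs changed 3-fold were recovered for CoCl2 against control. The changed genes were drawn from all genes above 0.5 CPM and not from the members. The recovery of changes in the members, or of changes near the fold threshold, was therefore not measured. Symbols were matched to GENCODE release 44 for 37982 of 60591 (458 by a RefSeq synonym).

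The members named are, per comparison, up to 5 rises and 5 falls among called members and 3 pair changes in each direction, the 5 with the highest mean CPM, those beside the count threshold and called members of the termination and decay list; others named in the text were chosen after their values were seen, and 1 member that the rule names is counted but not reported here. DESeq2 1.42.0, other scalings and filters, a replicate block and leaving out each library were tried as alternatives. Counts of 15998136 to 24209427 per library set the precision, PCR copies were not removed, and the floor of 3 counts per library covers counting error alone. Replicates were labelled biological, and p-values measure the spread between these cultures of 1 line.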

Additional observations from a re-analysis of the deposited data

How the results depend on the processing

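No direction changed for the 123 gene values and 61 pair values followed, under any of the settings below. The values followed were those called in the main fit, with some others named here. Values not followed did change sign with the scaling. With CoCl2, 14 partners had a negative log2 fold change after TMM scaling and 27 with library size alone. In the termination and decay list of 45 these were 18 and 32. The number of members called with CoCl2 (28) was 27 to 29 with 1 library left out, 28 by DESeq2, 27 with RLE factors and 32 with library size alone. It was 14 with at least 10 counts required in every library and 15 over members of at least 300 counts, where 25 members remained for testing. With OD (6) it was 5 to 7 with 1 library left out, 22 by adjusted p alone, and 2 under either count limit, and between the compounds (25) it was 23 to 25, 11 with at least 10 counts and 13 over members of at least 300. For the pair ratios, the calls with CoCl2 (26) were 24 to 27 with 1 library left out, 24 with an added count of 2, 11 with at least 10 counts and 13 over members of at least 300. With OD (7) they were 6 to 8, 19 by adjusted p alone and 3 under either count limit, and between the compounds (21) 21 to 23, 10 and 12. Fewer members were tested under both count limits. Replicate numbers did not pair the libraries (correlations of deviations from -0.005 to 0.038), and with a replicate block 28, 6 and 24 members and 26, 7 and 21 pairs were called; the RELA-DT difference between the compounds was then -0.99, under the fold threshold. The FZD4-DT, MAFG-DT and RELA-DT values rest on 115 to 304 summed counts. With 1 library left out, 19 of 1107 gene values lost a call and 13 gained one, and of 549 pair values 12 lost and 6 gained one. Most losses came from crossing the fold threshold. The 1107 and 549 values include results not called in the main fit, which could not lose a call, so they do not give a rate of loss.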

Other observations

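10 of the 89 -DT symbols under 100 summed counts passed the expression filter, and of these 6 were lower and 1 higher with CoCl2, with a median log2 fold change of -1.82, and 2 were lower and 1 higher with OD, with a median of -0.71 (edgeR). Over all tested genes the rule called 23.4% lower and 19.9% higher with CoCl2, and 4.16% and 9.09% with OD. Between the compounds 5 of the 10 were lower with CoCl2 and none higher, against 23.8% and 17.5% of all genes. With so few counts a symbol can pass the filter through the group where it is high. These splits therefore depend on the filter and add no separate evidence on the members. In the 229 other noncoding and coding pairs, 86 ratios fell and 26 rose with CoCl2, and 14 fell and 7 rose with OD.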
